A study of Mus musculus with 4 samples.

Results

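The 3′ untranslated region (3′ UTR) is the stretch of a messenger RNA that follows the stop codon, and the DNA that encodes it is the last part of most genes. Every 3′ UTR entry with a methylation level in all 4 bisulfite libraries was taken, which gave 4354 entries of the 4680 listed in any library and of the 151644 regions of any class with a level in all 4. Each entry carries an Ensembl gene identifier, and 4352 of the identifiers are in the GENCODE vM21 annotation of GRCm38, the assembly of mm10. Of these genes 4347 are protein-coding and 4306 have an annotated 3′ UTR. The exon entry of the same gene had a level in all 4 libraries for 4342 genes, the intron entry for 3958, the promoter for 3632 and the 5′ UTR for 3108, and 3946 genes had 3′ UTR, exon and intron together.

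The cells were C3H10T1/2, a mouse line used as mesenchymal stem cells (MSCs). Cells received a non-targeting siRNA (NC) or DNMT1 siRNA (siDNMT1) for 48 h, and were then left uninduced or kept for 3 days in ascorbic acid, β-glycerophosphate and dexamethasone, which induce osteoblast (OB) differentiation. The 4 conditions were therefore NC uninduced, siDNMT1 uninduced, NC OB and siDNMT1 OB, and all of them shared the line and a transfection. No uninduced library is listed with 3 further days in culture. Between uninduced and OB cells, induction thus cannot be told apart from time after transfection. Each condition was read as 1 library, so no difference below has a replicate check, no p-value was computed, and how far another culture of the same condition would vary is not known. The methylation level is the fraction of CpG cytosines read as methylated in a region, from 0 to 1, without read counts, so the depth behind a level is unknown and no interval could be given. Knockdown could not be checked in these values, since they hold no RNA or protein, and a 3′ UTR level of Dnmt1 itself was not analysed here.

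DNA methylation in mammals sits mainly on the cytosine of CpG dinucleotides. DNMT1 keeps existing methylation in place as cells divide, DNMT3A and DNMT3B can set up new patterns, and TET enzymes oxidise the mark as a first step of removal. CpG islands at gene starts are mostly free of methylation, whereas the bodies and ends of transcribed genes usually carry it, and 3′ UTRs are thus read in a part of the gene where methylation is the common state.

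Short CpG-bearing windows from 6 of the 3′ UTRs show the kind of DNA that was read, and they come from the genes whose values carry the comparisons below. Aptx and Odf2 fell with siDNMT1 in both states, and Dusp6 rose in both. Ehd2 was far below the exon and intron entries of its gene, and Mtfr1l was far above its own. Runx2 encodes the master transcription factor of osteoblasts. Each window is 30 bases on the gene's strand of GRCm38, read 5′ to 3′, and capitals mark CpG dinucleotides. Which of these cytosines were read is not known. The windows lie at chr4:40686529-40686558 (minus strand) for Aptx, chr2:29930668-29930697 (plus) for Odf2, chr10:99266723-99266752 (plus) for Dusp6, chr7:15948673-15948702 (minus) for Ehd2, chr4:134526333-134526362 (minus) for Mtfr1l and chr17:44607445-44607474 (minus) for Runx2.
Aptx: cactCGtctCGgCGaccaagggcagtgcta
Odf2: ctgtccagggtgtgatgccCGtgcctgaCG
Dusp6: gagatttttagctctgtatttgCGgtatCG
Ehd2: gcaccttccaaCGCGcactgacaCGaatCG
Mtfr1l: tgccttcctcacCGcagatgtctgtctcCG
Runx2: tgcttctgtcCGctgcCGtccactctgcCG

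The 3′ UTRs with a level were the longer, more CpG-rich ones. Of 20996 annotated 3′ UTRs, the 4306 with a level had a median length of 1481.5 bases, 23 CpGs and 1.49 CpGs per 100 bases. The 16690 without one had a median of 887 bases, 8 CpGs and 0.840 CpGs per 100 bases. Median GC content was 48.9% and 41.8%, and CpG islands overlapped 9.10% and 0.803%, respectively. Only islands with a deposited level were counted. An unread island is thus missed, and part of the island difference is fixed in advance. The labels name reduced representation bisulfite sequencing, which usually cuts DNA at CCGG with MspI, while the extraction protocol describes sonicated DNA and names no restriction enzyme. The share with a level rose with the number of CCGG sites in the 3′ UTR and the 300 bases on either side: 3.08% without a site (193 of 6258), 16.5% with 2 sites, 42.7% with 4 and 75.6% with 6 or more (1462 of 1934). Longer and more CpG-rich regions also hold more CCGG sites, and the contribution of each was not tested. The entries thus sample CpG-rich gene ends, and the levels below are those of such ends.

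**Figure D1:**
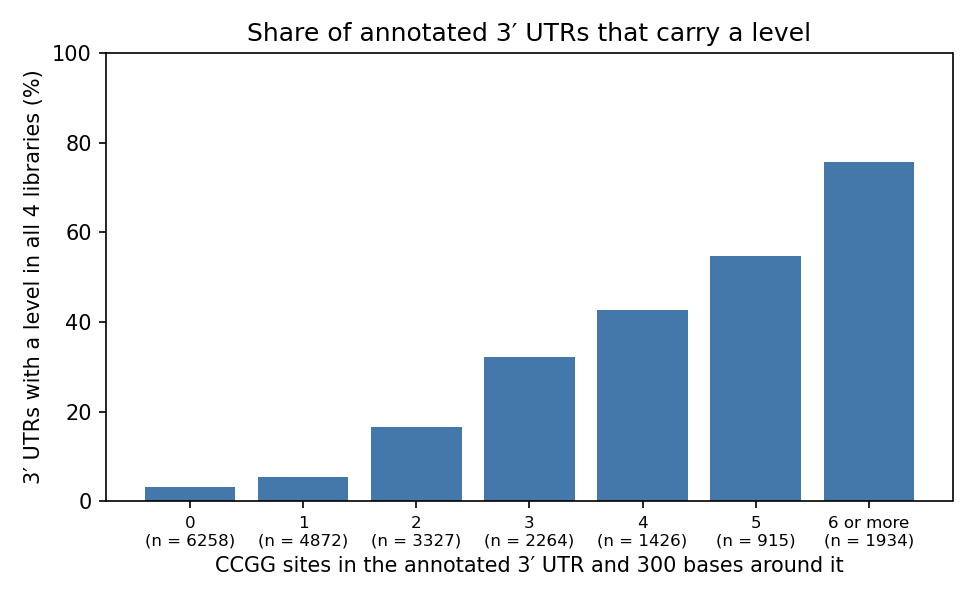
Share of annotated 3′ UTRs (percent, vertical axis) that have a methylation level in all 4 libraries, against the number of CCGG sites in the 3′ UTR and the 300 bases on either side (horizontal axis). The share goes from 3.08% at 0 sites to 75.6% at 6 or more.

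In each library most 3′ UTRs were methylated. The median level was 0.675 in NC uninduced, 0.667 in siDNMT1 uninduced, 0.673 in NC OB and 0.650 in siDNMT1 OB cells. The middle 50% of entries lay between 0.5 and 0.781 in NC uninduced and between 0.476 and 0.755 in siDNMT1 OB cells, so the spread among genes was far wider than any difference between libraries. Levels of 0.75 or more were found in 33.8% of the 3′ UTRs of NC uninduced cells, 31.0% in siDNMT1 uninduced, 33.2% in NC OB and 26.7% in siDNMT1 OB cells. Levels below 0.2 were uncommon, in 7.79%, 7.92%, 8.20% and 8.59% of entries in the same order. The siDNMT1 OB library gave the lowest of the 4 levels at 2561 of the 4354 3′ UTRs (58.8%) and the highest at 391, whereas the NC uninduced library gave the lowest at 477 and the highest at 1595. It also listed the fewest 3′ UTRs, 4449 against 4528 to 4575 in the other libraries. Of the 326 entries missing somewhere, 80 were missing from the siDNMT1 OB library alone, and whether fewer reads went with its lower levels was not tested.

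The 3′ UTR entries had higher levels than the other entries of the same genes. In the 3946 genes with all 3 entries, the median level in NC uninduced cells was 0.686 in 3′ UTRs, 0.471 in exons and 0.442 in introns. Within a gene, the 3′ UTR exceeded the exon entry by a median of 0.125 in NC uninduced, 0.123 in siDNMT1 uninduced, 0.136 in NC OB and 0.132 in siDNMT1 OB cells. It exceeded the intron entry by 0.188, 0.186, 0.197 and 0.192. The 3′ UTR was the higher one in 71.0% to 71.9% of genes against exons and in 77.4% to 77.7% against introns, with nearly the same shares in all 4 libraries. Over the promoter, the 2 kb before the transcription start, the 3′ UTR was higher by a median of 0.435 in NC uninduced cells (3632 genes), and over the 5′ UTR by 0.581 (3108 genes), where the median level was 0.0333. Exon entries may contain the 3′ UTR itself, since a median of 21.4% of a gene's annotated exonic CpGs lie in it. They may contain the 5′ UTR as well, and which exon and intron cytosines were read is not known. How far CpGs near gene starts lower the exon and intron levels was not tested.

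**Figure D2:**
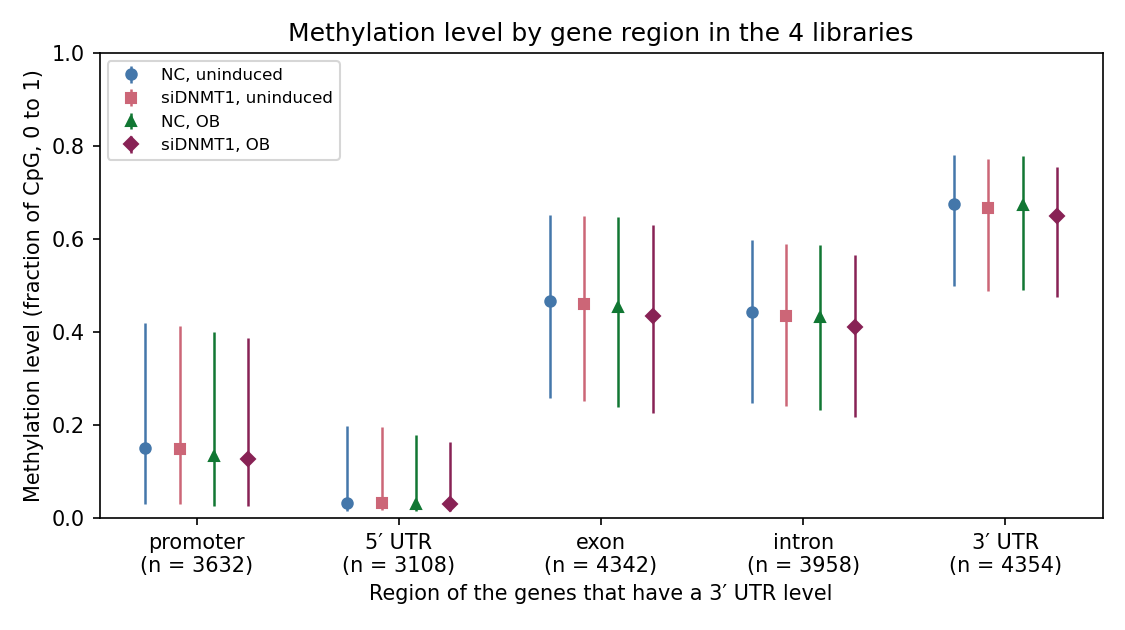
Methylation level (fraction, vertical axis) of the 3′ UTR, exon, intron, promoter and 5′ UTR entries of the same genes in the 4 libraries, with points for medians and bars for the middle 50% of entries. Median levels of 3′ UTRs lie between 0.650 and 0.675, above those of exons (0.435 to 0.467) and introns (0.412 to 0.443).

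The gap between the 3′ UTR entry and the exon and intron entries varied with the promoter level. Genes with a promoter below 0.2 (2066) had a median level over the 4 libraries of 0.700 in the 3′ UTR, 0.337 in exons and 0.349 in introns. In genes with a promoter at 0.5 or more (670), the 3′ UTR was at 0.673, exons were at 0.639 and introns at 0.542. The exon level was thus far higher in the last class than in the first, while the 3′ UTR level was slightly lower, and the median gap to exons went from 0.282 to 0.00399. Gene size went with the level too. The median 3′ UTR level was 0.493 in genes spanning less than 5 kb (481), of which 25.6% were below 0.2, and 0.698 in genes of 100 kb or more (657), of which 3.04% were below 0.2. Genes with a single exon (156) had a median of 0.308, and 39.7% of them were below 0.2, against 0.673 and 6.79% in genes with more exons.

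Poorly methylated 3′ UTRs lay more often over CpG islands. Of the 340 annotated entries with a mean level below 0.2, 126 (37.1%) overlapped an island, against 6.71% of the 3966 others. Of the same 340, 115 overlapped a promoter of a different gene and 61 belonged to genes with a single exon. These sets overlap, and 176 entries overlapped an island or such a promoter. Of the 712 3′ UTRs that overlap such a promoter 16.2% were below 0.2, against 6.26% of the 3594 that do not. The 392 island 3′ UTRs had a median level of 0.437, and 32.1% were below 0.2. The 3914 others had a median of 0.674, and 5.47% were below 0.2. The 210 densest 3′ UTRs, with 4 or more CpGs per 100 bases, had a median of 0.463, against 0.675 in the 2280 with 1 to 2. On the X chromosome, 47 entries had a median of 0.541, against 0.669 on the autosomes.

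Before OB induction, siDNMT1 cells had slightly lower 3′ UTR methylation than NC cells. The median difference, siDNMT1 minus NC, was -0.00730, with the middle 50% between -0.0209 and 0.00606, and 2809 of 4354 entries (64.5%) were lower. A change was counted from a difference of 0.1, and falls or rises below are of at least that size. By this count 70 3′ UTRs fell, or 1.61%, against 1.59% over regions of all classes. Another 48 rose, or 1.1%, against 1.34% of all regions. Both shares were therefore close to the background. After each library was centred on its own median, which takes out a shift of -0.00837 between the 2 libraries, 51 fell and 59 rose. Exon entries of the same genes changed less often, with 24 that fell (0.553%) and 14 that rose (0.322%), and so did introns, with 20 (0.505%) and 12 (0.303%). The share that changed was smaller where the 3′ UTR holds more CpGs. Among 3′ UTRs with 50 or more CpGs (815), 7 fell and 5 rose, while among those with fewer than 10 (968), 24 fell and 12 rose, and the part of CpG number in the difference from exons and introns was not tested. The median difference hardly moved with the CpG number, at -0.00659 in those with fewer than 10 and -0.00805 in those with 50 or more.

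In OB cells the difference was larger and wider in reach. The median was -0.0200, the middle 50% lay between -0.0372 and -0.00280, and 3410 of 4354 entries (78.3%) were lower in siDNMT1. In this comparison 106 3′ UTRs fell (2.43%, against 2.56% of all regions) and 53 rose (1.22%, against 1.4%), again near the background. Centring, with a shift of -0.0238, turned these counts to 62 and 82, and it turns the sign of every median, gene list or gene below whose OB difference is negative and smaller than that shift. Exons had 49 falls (1.13%) and 21 rises (0.484%), and introns had 21 (0.531%) and 14 (0.354%). In the 3946 genes with all 3 entries, the median OB difference was -0.0206 in 3′ UTRs, -0.0139 in exons and -0.0148 in introns, and the 3′ UTR was lowered more than the intron in 55.9% of genes. The gap was smaller between entries of like level. Among entries of these genes with a mean level of 0.5 to 0.75, the OB median was -0.0234 in 3′ UTRs, -0.0183 in exons and -0.0210 in introns, and from 0.75 upward it was -0.0223, -0.0198 and -0.0225. Entry by entry, the OB difference minus the uninduced one had a median of -0.0130, and 2954 entries were lower against 1386 that were higher.

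**Figure D3:**
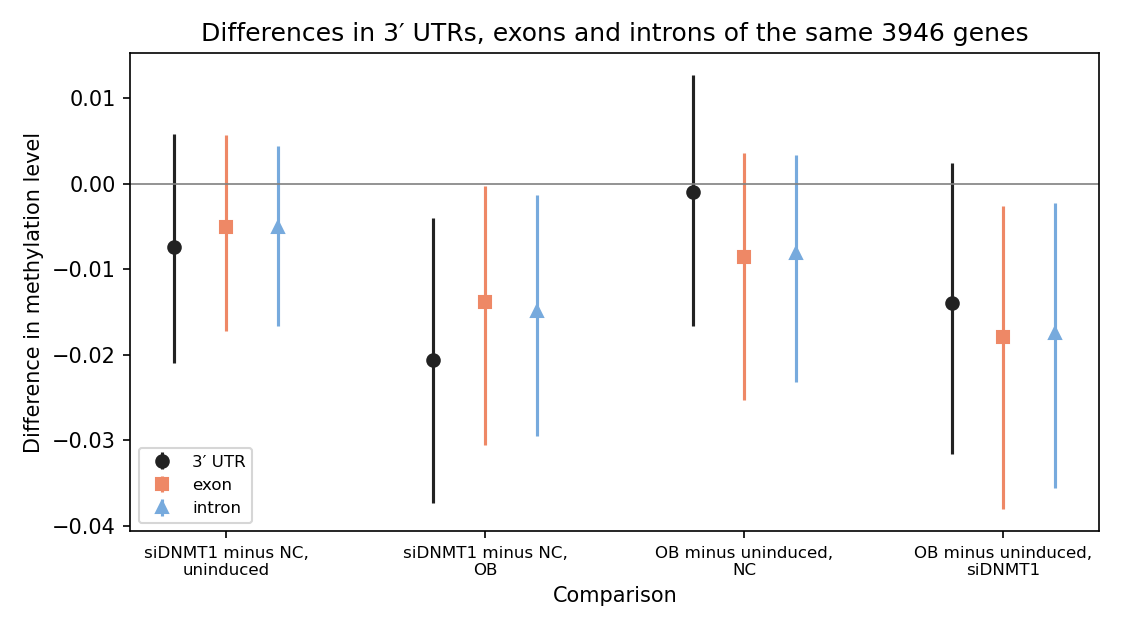
Median difference in methylation level (fraction, vertical axis) for the 4 comparisons in the 3′ UTR, exon and intron entries of the same genes, with bars for the middle 50% of entries. 3′ UTRs have the larger siDNMT1 difference in OB cells (-0.0206, against -0.0139 in exons) and the smaller difference with OB induction in NC cells (-0.00103, against -0.00861).

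The small siDNMT1 differences were spread over the genome. The chromosome medians were negative on 20 of 20 chromosomes before induction, from -0.0102 on chromosome 3 to -0.000915 on chromosome 18, and on 20 of 20 in OB cells, from -0.0250 on chromosome 3 to -0.0128 on X. Single entries mostly moved little, with 89.3% of 3′ UTRs within 0.05 of NC before induction and 82.1% in OB cells. Methylated 3′ UTRs carried the difference. In OB cells the median was -0.0016 in the 347 entries with a mean level below 0.2, -0.0138 between 0.2 and 0.5 (796), -0.0234 between 0.5 and 0.75 (1871) and -0.0223 from 0.75 (1340). Before induction the medians were 0.00064, -0.0044, -0.0081 and -0.0095 in the same order. An entry near 0 has little room to fall. Island 3′ UTRs had an OB median of -0.0104, against -0.0213 in those off islands.

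**Figure D4:**
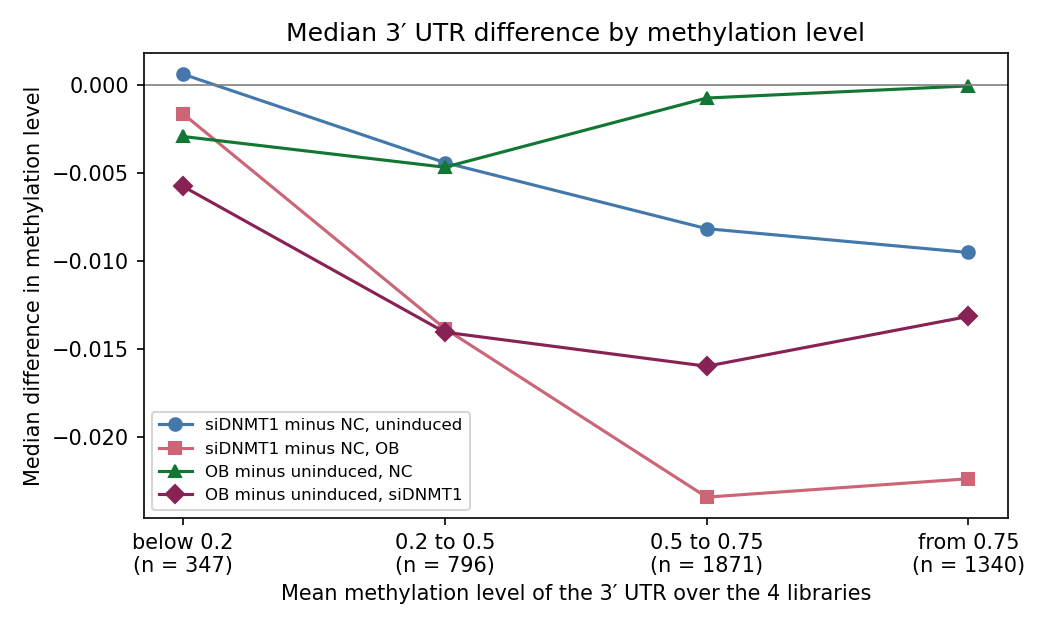
Median difference in methylation level (fraction, vertical axis) by class of mean 3′ UTR level (horizontal axis) for the 4 comparisons. In OB cells the siDNMT1 median goes from -0.0016 below a level of 0.2 to -0.0234 between 0.5 and 0.75.

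In NC cells, 3′ UTR levels after OB induction were close to those of uninduced cells. Between the 2 NC libraries, OB minus uninduced, the median was -0.00106, with 2281 entries lower and 2052 higher. In all, 72 fell (1.65%, against 1.96% of all regions) and 57 rose (1.31%, against 1.62%). Exons and introns of the same genes were lowered more. In the 3946 genes with all 3 entries the medians were -0.00103 in 3′ UTRs, -0.00861 in exons and -0.00807 in introns, and the 3′ UTR was lowered more than the exon in 37.9% of genes and more than the intron in 39.1%. The gap was also seen at like levels. Between 0.2 and 0.5 the medians were -0.0045 in 3′ UTRs, -0.0171 in exons and -0.0125 in introns, and between 0.5 and 0.75 they were -0.00062, -0.0066 and -0.0060. Exons had 34 falls (0.783%) and 14 rises (0.322%), and introns 28 (0.707%) and 11 (0.278%). In siDNMT1 cells, OB minus uninduced had a 3′ UTR median of -0.0136. There 143 entries fell (3.28%, the same as over all regions) and 62 rose (1.42%, against 1.78%), or 111 and 88 after centring. Exons had 97 falls (2.23%) and 35 rises (0.806%), and introns 73 (1.84%) and 25 (0.632%), while exon and intron medians in the 3946 genes were -0.0180 and -0.0174 against -0.0139 in 3′ UTRs. These 4 comparisons share libraries in pairs, so they are not independent of each other.

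The exon and intron entries of genes whose 3′ UTR fell are given beside those of all 3946 genes. Of the 90 genes with all 3 entries whose 3′ UTR fell with siDNMT1 in OB cells, 70 had a lower exon level, against 75.4% of all 3946. In 6 of the 90 the exon fell by at least 0.1, against 41 of all 3946 (1.04%). In the same 90 genes 63 had a lower intron level, against 77.3% of all 3946, and 0 introns fell, against 21 of 3946 (0.532%). The intron median in these genes was -0.0127, close to the -0.0148 over all 3946. Before induction, 63 such genes had 37 lower exons, against 63.0% of all 3946, and 4 exons fell, against 20 of 3946 (0.507%). They had 33 lower introns, against 65.4% of all 3946, and 1 intron fell, against 0.507% of all. Exons, which can contain the 3′ UTR, thus fell more often in these genes than over all. The 2 siDNMT1 comparisons share no library. The 3′ UTRs that fell in both numbered 13, which is 18.6% of the 70 before induction, 12.3% of the 106 in OB cells and 0.299% of all entries. Those that rose in both numbered 6, or 12.5% and 11.3% of the 2 lists and 0.138% of all. Opposite changes were about as common. Before induction 11 fell that rose in OB cells, or 15.7% of the 70, and 10 did the reverse, or 20.8% of the 48 that rose before induction. These overlaps were not counted over regions of all classes, so no background share stands beside them.

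The 3′ UTRs named next have at least 10 annotated CpGs and were chosen by the values given, so these are descriptions. A choice by both siDNMT1 comparisons fixes part of how siDNMT1 and NC levels are ordered. The share of 3′ UTRs with both siDNMT1 levels on the same side of both NC levels was not counted. Aptx encodes aprataxin, a DNA repair protein that removes AMP left at DNA ends. Its 3′ UTR (chromosome 4, 40682382 to 40686558, 43 CpGs) was at 0.583 in NC uninduced, 0.397 in siDNMT1 uninduced, 0.588 in NC OB and 0.400 in siDNMT1 OB cells. Both siDNMT1 libraries were thus lower than both NC libraries by a like amount, while the exon and intron entries of Aptx had means of 0.0293 and 0.0418. Odf2, a component of centrioles and sperm tails, was at 0.793, 0.614, 0.786 and 0.600 in the same order, with exons at 0.0581 and introns at 0.161. Its spliced 3′ UTR (chromosome 2, 29922435 to 29931746, 15 CpGs) had the same pattern as Aptx. In both genes the 3′ UTR entry was thus far above the exon and intron entries. Which cytosines these entries rest on is not known, so the rest of the gene body may be more methylated than they show.

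Of 7 such 3′ UTRs that fell in both states, 6 are named, and the other 4 were less even. Ccdc151, which helps dock dynein arms in cilia, was at 0.583, 0.407, 0.690 and 0.435 in the order NC uninduced, siDNMT1 uninduced, NC OB, siDNMT1 OB. Its 3′ UTR of 255 bases lies within the promoter of another gene, and 233 of its bases are in a CpG island. Prr36 was at 0.457, 0.258, 0.474 and 0.3. In Ccdc151 and Prr36 both siDNMT1 levels were below both NC levels, which the choice partly fixes. Diaph2, an X-linked formin that assembles actin filaments, was at 0.800, 0.659, 0.739 and 0.592, with both siDNMT1 levels again below both NC levels. Gpr132, a G protein-coupled receptor, was at 0.250, 0.119, 0.234 and 0. In Gpr132 and Prr36 the exons, at 0.688 and 0.540, were more methylated than the end of the gene.

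With the same CpG minimum, 5 3′ UTRs rose in both states. Fbn2, which encodes the microfibril protein fibrillin-2, was at 0.385 in NC uninduced, 0.538 in siDNMT1 uninduced, 0.411 in NC OB and 0.532 in siDNMT1 OB cells. Snx11, a sorting nexin of endosomes, was at 0.625, 0.737, 0.600 and 0.744. In both genes the siDNMT1 levels were nearly equal to each other and above both NC levels, an order that the choice partly fixes. Sap130, a subunit of the SIN3 corepressor complex, was at 0.418, 0.758, 0.444 and 0.578, a rise that was larger before induction. Dusp6, a phosphatase that switches off ERK, was at 0.667, 0.767, 0.562 and 0.667. Its NC uninduced and siDNMT1 OB levels were equal, so the siDNMT1 and NC levels touch. All 1190 bases of its 3′ UTR lie in a promoter of another gene. Gcfc2, a splicing factor, was at 0.333, 0.458, 0 and 0.600, and its NC OB level of 0 sets the size of its rise in OB cells. All 1844 bases of its 3′ UTR lie in exons of another gene, as do 685 of the 1491 of Snx11.

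**Figure D5:**
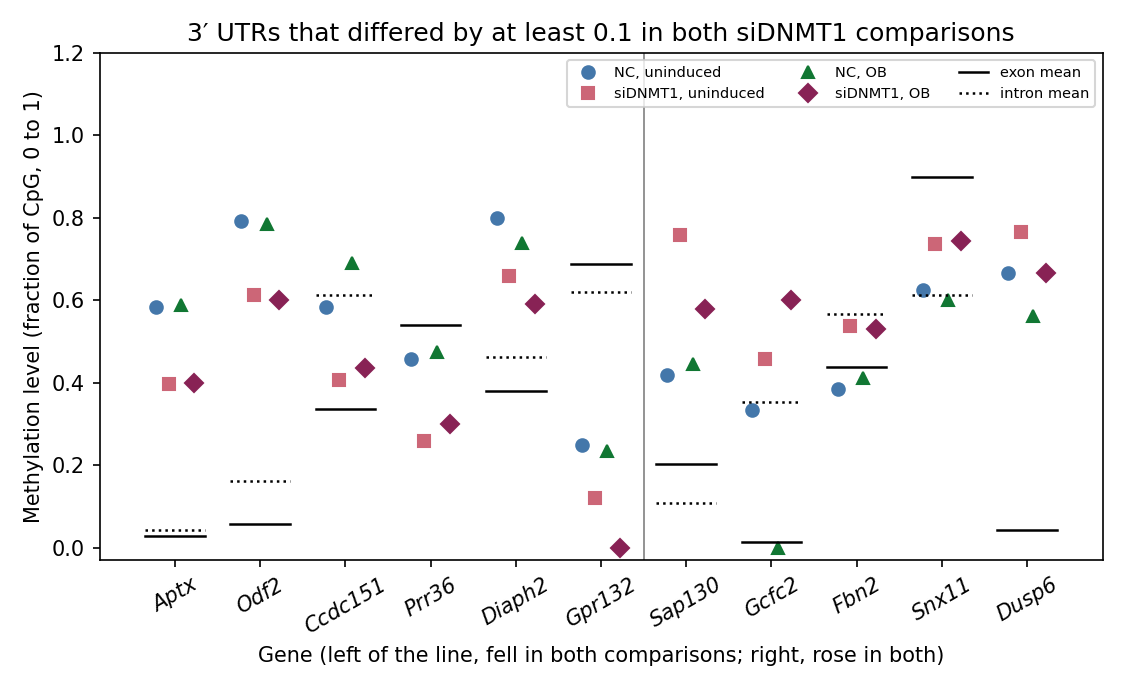
Methylation level (fraction, vertical axis) of the 3′ UTRs with at least 10 annotated CpGs that fell or rose by at least 0.1 with siDNMT1 in both states, 1 point per library, with solid and dotted lines for the mean exon and intron levels of the same gene where there is one. Aptx and Odf2 lie near 0.6 to 0.8 or 0.4 to 0.6 over exons below 0.1.

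Of the largest single differences, those of Sap130, Gcfc2 and Ccdc151 had the same direction in both states and are given above, and others stood in 1 state. Before induction the largest falls included Tmem26, at 0.5, 0, 0.550 and 0.462, and Ppfia1, which encodes the focal adhesion protein liprin-α1, at 0.416, 0, 0.497 and 0.414. In both, a level of 0 in the siDNMT1 uninduced library stood against 3 levels near 0.5, and the reads behind that 0 are unknown. Anapc13, a subunit of the anaphase-promoting complex, was at 0.636, 0.385, 0.700 and 0.615. Among the rises, Rem2, a small GTPase that inhibits calcium channels, was at 0.5, 0.833, 0.671 and 0.656, and Ptcd2, a mitochondrial RNA-processing protein, was at 0.432, 0.722, 0.544 and 0.456. In OB cells, Tspan11, a tetraspanin, was at 0.487, 0.424, 0.600 and 0.290, and Pde6d, a carrier of prenylated proteins, was at 0.673, 0.730, 0.778 and 0.5. Cttn, which encodes the actin-binding protein cortactin, rose there, at 0.485, 0.5, 0.308 and 0.833. In these genes the other state showed a difference under 0.1 in level.

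With OB induction in NC cells, the largest changes included transcription factor genes. Zeb1, a repressor of epithelial genes, was at 1 in NC uninduced, 1 in siDNMT1 uninduced, 0.661 in NC OB and 0.688 in siDNMT1 OB cells, so the 2 OB libraries were below the 2 uninduced ones. Olig2, a factor of oligodendrocyte and motor neuron development, was at 0.322, 0.340, 0.559 and 0.619, and Tcl1, an AKT co-activator, was at 0, 0, 0.312 and 0.5. Uhrf1bp1 was at 0.3, 0.550, 0.722 and 0.720. In these 4 genes both OB libraries lay on the same side of both uninduced ones. It was not so in Alkbh1, Trip13, Gcfc2 and Hoxa5, the other 4 with the largest changes between the NC libraries. All of them were chosen by the NC difference, which fixes part of this pattern. Its share over all 3′ UTRs was not counted.

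Some 3′ UTR entries stood far from the exon and intron entries of their genes in every library. Ehd2, an ATPase of caveolae, had a 3′ UTR (chromosome 7, 15946958 to 15950240, 52 CpGs) at 0.0195, 0.0157, 0.0238 and 0.0210, while its exons averaged 0.687 and its introns 0.753. Of its 3283 bases, 1117 lie in a promoter of another gene. Itga10, a collagen-binding integrin of cartilage, lay between 0 and 0.0769 with exons at 0.760. Rfxank, which activates MHC class II genes, lay between 0.0809 and 0.130, and Duoxa2, a maturation factor of the oxidase DUOX2, between 0.0755 and 0.175. All 488 bases of the Duoxa2 3′ UTR lie in exons of another gene, as do 828 of the 2587 of Rfxank. The reverse was seen in Mtfr1l, at 0.962, 0.959, 0.931 and 0.973 over exons at 0.0586. Sp1, a general activator that binds GC boxes, lay between 0.941 and 1 over exons at 0.0800, and Afg3l2, a mitochondrial protease, between 0.832 and 0.918 over exons at 0.0568. Dcaf8 and Spopl, adaptors of ubiquitin ligases, had 3′ UTRs between 0.857 and 0.893 and between 0.800 and 0.883. Of the 5096 bases of the Spopl 3′ UTR, 2000 lie in a promoter of another gene. In none of the genes named here did siDNMT1 change the 3′ UTR by 0.1.

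The gene lists that follow are small, and over all 3′ UTRs 1.61% fell and 1.1% rose with siDNMT1 before induction and 2.43% fell and 1.22% rose in OB cells, so a count of 0 in such a list is near what these shares give. With siDNMT1, 64.5% of all 3′ UTRs were lower before induction and 78.3% in OB cells. Among osteoblast transcription factor genes 4 of 11 had a level, and 0 fell or rose with siDNMT1 in either state. Runx2 was at 0.766 in NC uninduced, 0.779 in siDNMT1 uninduced, 0.773 in NC OB and 0.746 in siDNMT1 OB cells. Dlx5, a homeobox activator of bone genes, was at 0.890, 0.888, 0.880 and 0.862, and Fosl2, an AP-1 subunit, was at 0.808, 0.811, 0.793 and 0.754. All 3 had their lowest level in the siDNMT1 OB library. Ctnnb1, which encodes β-catenin of the WNT pathway, ranged more widely, at 0.467, 0.559, 0.608 and 0.525, and it rose with induction in NC cells. The list median in OB cells was -0.0328, against -0.0200 over all 3′ UTRs.

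Of the bone matrix genes 3 of 11 had a level, and again 0 changed with siDNMT1. Alpl, the alkaline phosphatase that frees phosphate for mineral, was at 0.438, 0.485, 0.442 and 0.533, higher in both siDNMT1 libraries. Bglap (osteocalcin) was at 0.861, 0.838, 0.835 and 0.777, and Sparc (osteonectin) was at 0.486, 0.447, 0.412 and 0.395, both lower. Of the genes that the study itself discusses, 5 of 14 had a level and 0 changed with siDNMT1. Rora, a nuclear receptor, was at 0.826, 0.836, 0.820 and 0.816, Fgfr2, a receptor of fibroblast growth factors, was at 0.813, 0.817, 0.822 and 0.810, and Sox6, a cartilage transcription factor, was at 0.321, 0.316, 0.369 and 0.358. Wnt3a, a secreted WNT ligand, was at 0.349, 0.366, 0.347 and 0.363. These 4 genes stayed within 0.02 of NC in both states.

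Of the genes of methylation enzymes 4 of 8 had a level. Dnmt3a was at 0.602, 0.577, 0.603 and 0.578, Dnmt3b at 0.790, 0.753, 0.760 and 0.746, and Tet3 at 0.896, 0.870, 0.884 and 0.864, each lower in both siDNMT1 libraries by less than 0.04. Tet1 was at 0.278, 0.256, 0.333 and 0.5, the only change of the list between siDNMT1 and NC, a rise in OB cells.

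Genes that act on 3′ ends of RNA form 3 lists, in which 0 genes changed with siDNMT1. Among cleavage and polyadenylation genes, which cut and tail transcripts, 7 of 20 had a level, with a median of 0.755, and 6 of 7 were lower with siDNMT1 in OB cells, where 78.3% of all 3′ UTRs were. Pabpn1, the nuclear poly(A)-binding protein, was the exception in level, between 0 and 0.0118. Among miRNA silencing genes 5 of 12 had a level. All 5 were lower before induction, where 64.5% of all 3′ UTRs were, and 4 of 5 in OB cells. The list median before induction was -0.0322, against -0.00730 over all 3′ UTRs. Dicer1, which cuts miRNA precursors, had the largest difference before induction, at 0.532 in NC and 0.484 in siDNMT1. Among genes of proteins that bind 3′ UTRs 6 of 20 had a level, with Msi2, a translational regulator, the most raised in OB cells (0.430 in NC, 0.528 in siDNMT1).

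The gene families had widely different levels. The 6 replication-dependent histone genes of 70 had a median of 0.0356 and the 7 ribosomal protein genes of 89 one of 0.244, while the 65 Zfp genes of 374 were at 0.746, the 12 collagen genes of 44 at 0.742 and the 33 olfactory receptor genes of 1106 at 0.353. In the 17 Hox genes of 39 the median was 0.434. Hoxa5, a positional transcription factor, was the only Hox 3′ UTR that changed with siDNMT1, at 0.5, 0.690, 0.722 and 0.5, a rise before induction and a fall in OB cells. Among collagens Col7a1, the anchoring fibril collagen, fell in OB cells from 0.584 to 0.479. There 8 of 12 were lower, against 78.3% of all 3′ UTRs. Among Zfp genes 54 of 65 were lower in OB cells, where 78.3% of all 3′ UTRs were. Their median of -0.0177 was close to the -0.0200 over all 3′ UTRs. Of these genes 1 fell in each state (Zfp410 before induction, Zfp651 in OB cells) and 0 rose. Olfactory receptors had 1 fall and 1 rise before induction and 2 rises in OB cells, with Olfr520 the highest in both, at differences of 0.439 and 0.857. These were the largest rises of all 3′ UTRs, and Olfr520 did not meet the minimum of 10 annotated CpGs set for the named genes. The gene lists were not held to that minimum, and Col7a1, with 8 annotated CpGs, did not meet it either. In the 6 histone and 7 ribosomal protein genes 0 changed in either state.

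The remaining lists were small or level. The 10 WNT ligand genes of 19 had a median of 0.350, the 11 imprinted genes of 23 one of 0.603, and 0 of either list changed with siDNMT1. Among imprinted genes 9 of 11 were lower in OB cells, where 78.3% of all 3′ UTRs were. Gnas, which encodes the stimulatory G protein α subunit, had the largest such difference (0.396 in NC, 0.348 in siDNMT1). Cartilage genes had 3 of 11 with a level, all lower in both states by less than 0.06. Of the adipocyte genes 2 of 10 had a level, and these 2 regulators of fat cell formation were far apart: Cebpa was between 0.736 and 0.766 and Cebpb between 0.0221 and 0.0246. The marker genes of these other lineages were thus too few at this class of region to check the cell type.

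Some entries repeat each other. In 11 sets, 34 entries shared 1 level with another in all 4 libraries, so that 4331 different entries remain. The largest set holds 13 entries of the protocadherin alpha cluster and Usp22, all at 1 in every library. Clustered protocadherins are cell adhesion proteins whose alpha genes share their last exons. Pcdha6, which has the same annotated 3′ UTR as the other alpha genes, was at 0.534, 0.482, 0.542 and 0.496, so its entry and theirs cannot rest on the same reads. Of the 15 clustered protocadherin entries (of 57), 0 changed.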

How the data were processed

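Methylation was read by bisulfite sequencing in 4 libraries, 1 for each siRNA and induction state, and groups were taken from the sample labels. Read trimming by the authors used Trimmomatic 0.36 and alignment to mm10 used Bismark 0.16.3. The authors deposited a methylated fraction (methylated CpG cytosines out of those read) for regions of 8 classes, with 1 level per gene and class where a class belongs to genes. The coverage minimum, the gene annotation and the weighting of cytosines are not given in the sources used here. Which of the study's DNMT1 siRNAs went into the libraries is not stated, and read depth is unknown.

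Entries with a level in all 4 libraries were compared as deposited, with a change counted from 0.1. No test was run, since each condition has 1 library. Lengths, CpGs and CCGG sites came from GENCODE vM21 basic protein-coding transcripts on GRCm38. Islands were those with a deposited level in any library, and 14354 of 14354 start and end with CG in that assembly. Promoters of other genes were the 2000 bases before their starts. Genes were named by the size of their changes among 3′ UTRs with at least 10 CpGs: up to 6 per direction changed alike in both siDNMT1 comparisons, the 5 largest falls and rises in each, the 4 largest between the NC libraries, and the 5 furthest above and below both exon and intron levels. Lists of the study's genes, methylation enzymes, osteoblast factors and bone matrix are given gene by gene and the others by counts and their extreme members. A gene that this rule selects is not reported here. The members, lists and rules were chosen with earlier results of these data known. The functions were tested on simulated data. Software was pysam 0.24.0, pandas 2.3.3 and numpy 2.4.6 under Python 3.11.15, with matplotlib 3.10.9 for plots.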

Additional observations from a re-analysis of the deposited data

Results flagged for a closer look

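In 8 of the named genes the 3′ UTR changed by at least 0.1 in opposite directions with siDNMT1 before induction and in OB cells. The difference between the 2 states was not tested, since each state has 1 library per siRNA. Levels are in the order NC uninduced, siDNMT1 uninduced, NC OB, siDNMT1 OB, and the value after them is the OB difference minus the uninduced one.

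In 4 genes the 3′ UTR fell before induction and rose in OB cells. Man2a1, a Golgi mannosidase, was at 0.731, 0.559, 0.412 and 1 (0.760). Alkbh1, a dioxygenase that acts on tRNA, was at 0.857, 0.524, 0.25 and 0.625 (0.708). Mmaa, which handles vitamin B12 in mitochondria, was at 0.342, 0.171, 0.188 and 0.571 (0.555). Trip13, an ATPase of the mitotic checkpoint, was at 0.643, 0.350, 0.222 and 0.438 (0.508). In Alkbh1 and Trip13 the NC OB level was the lowest of the 4 and the NC uninduced level the highest, so the opposite signs go with the distance between the NC libraries.

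In the other 4 the 3′ UTR rose before induction and fell in OB cells. Hk1, the hexokinase that starts glycolysis, was at 0.5, 0.791, 0.7 and 0.4 (-0.591). Cox19, an assembly factor of cytochrome c oxidase, was at 0.424, 0.585, 0.543 and 0.143 (-0.561). Ttll11, a tubulin polyglutamylase, was at 0.463, 0.8, 0.454 and 0.330 (-0.461). Hoxa5 gave -0.412. In Ttll11 the NC levels were nearly equal and the 2 siDNMT1 levels lay on either side of them.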

How the results depend on the processing

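With 1 library per condition leaving out a library was not possible and there was no replicate spread. No paired analysis was possible, also because each condition has 1 library. Depth is unknown, also behind levels of 0 and 1. Of 164 alternative values, 112 stayed within the limits set for the same result, 47 moved and 5 changed sign. The limits were 95% intervals over 3′ UTR entries, which are not replicates of a condition, so they do not measure variation between cultures. They were narrow, and many alternatives keep most of the same entries. The causes were not tested except where the alternative fixes the result.

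Results are in the order siDNMT1 minus NC uninduced, the same in OB cells, OB minus uninduced in NC cells, and the same in siDNMT1 cells. Centring each library on its median, which by construction takes out a shared shift, gave medians of 0.00107, 0.00377, 0.000466 and 0.00341, and 0.00249 for the OB difference minus the uninduced one. It gave falls of 1.17%, 1.42% and 2.55% in the 1st, 2nd and 4th comparison and rises of 1.88% and 2.02% in the 2nd and 4th. The fallen share of changed entries went from 59.3% to 46.4% before induction, from 66.7% to 43.1% in OB cells and from 69.8% to 55.8% with induction of siDNMT1 cells. Among the 82 named-gene values, 0 of those with a difference of at least 0.1 changed sign. Smaller differences were not counted, and some of them did change sign. That of Ehd2 in OB cells went from -0.00278 to 0.0210.

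At a threshold of 0.05, 6.61%, 14.5%, 6.96% and 13.3% fell and 4.13%, 3.47%, 5.42% and 4.39% rose. At 0.2, 0.345%, 0.482%, 0.459% and 0.551% fell and 0.230%, 0.436%, 0.207% and 0.551% rose. Over entries with mean levels from 0.5 upward, the medians were -0.00865, -0.0228, -0.000332 and -0.0144, and -0.0146 for the OB difference minus the uninduced one. Falls were then 1.21%, 1.12% and 2.77% in the 1st, 3rd and 4th comparison. With at least 50 CpGs, a limit added after seeing the data, 0.859% fell and 0.613% rose in the 1st, 0.859% and 0.491% in the 2nd, and 2.58% and 0.982% in the 4th, while 0.736% rose in the 3rd. The median of the 4th was then -0.0148, and that of the OB difference minus the uninduced one was -0.0118. With at least 10 CpGs, 2.01% fell in the 2nd and 1.11% rose in the 4th comparison. Without island entries, the 2nd and 3rd medians were -0.0213 and -0.000375.

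The gap to exons was 0.145 with at least 10 CpGs, 0.165 with at least 50, 0.148 without islands and 0.207 over mean levels from 0.5 upward, where the gap to introns was 0.263.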

Other observations

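Csf1r, the receptor of the growth factor that drives osteoclast formation, shares its 3′ UTR level with Hmgxb3, so the value cannot be given to either gene alone. The shared level was 0.792 in NC uninduced, 0.769 in siDNMT1 uninduced, 0.822 in NC OB and 0.726 in siDNMT1 OB cells. Levels of exactly 0 were found at 9, 13, 5 and 13 3′ UTRs in NC uninduced, siDNMT1 uninduced, NC OB and siDNMT1 OB cells, and levels of exactly 1 at 19, 19, 18 and 22. These genes were chosen after their values were seen.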
